A study of Mus musculus with 43 samples.

Results

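Female mice that drank short-chain fatty acids (SCFA) were compared with female mice that did not, 3 days after a laser lesion of the retina (3 dpl). The comparison held 7 of the 43 retinal RNA-seq libraries of the series, namely SCFA replicates 1, 3, 4 and 5 and control replicates 1 to 3. They were chosen by their labels, and SCFA replicate 2 was left out because lens transcripts took 26.5% of its counts, against at most 0.0988% in any of the other 42 libraries. All mice were C57BL/6J females lasered at 9 weeks of age, and the controls carried the same laser-induced choroidal neovascularisation (CNV) lesion. Each library was a pool of 2 retinas from 2 mice of one group. The SCFA mixture was given in the drinking water from 3 weeks before the laser until collection, as sodium acetate at 67.5 mM, sodium propionate at 40 mM and sodium butyrate at 25 mM. The grams per litre given beside these concentrations place butyrate above propionate, so which of the pair was at 40 mM is uncertain. The question was which retinal transcripts differ between treated and untreated females early after the lesion. The p-values below measure only the spread between these pools of mice.

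Acetate, propionate and butyrate are made by gut bacteria from dietary fibre. They enter cells through monocarboxylate transporters, act on G protein-coupled receptors and, in the case of butyrate, inhibit histone deacetylases. The retina responds to laser injury with activation of microglia and Müller glia, and its neurons and glia switch on immediate early genes, transcription factors such as *Egr1* and *Fos*, within minutes of activity, stress or growth factor signals.

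The 7 libraries held 16243992 to 19280100 counts each, and levels are given as CPM, each gene's count scaled to the library's TMM-normalised total. Rod transcripts were abundant in every library, with *Gnat1* (rod transducin) at 17800 to 21200 CPM, and bipolar (*Grm6*, 80.7 to 122 CPM), amacrine (*Gad1*, 169 to 244 CPM) and Müller glia (*Rlbp1*, 445 to 1110 CPM) markers were present in all 7. The columns of the deposited table ran through the groups once, for 31 libraries, and then again for the remaining 12. SCFA replicates 4 and 5 belonged to the second run of columns, whereas SCFA replicates 1 and 3 and all controls belonged to the first. What the runs stand for is not stated in the sources used here. Mitochondrial mRNAs took 4.71 to 14.8% of counts in the 31 libraries of the first run and 2.5 to 4.57% in the 12 of the second, without overlap. The share was 5.21 to 6.70% in the 3 female controls, 7.28 and 11.5% in SCFA replicates 1 and 3, and 4.20 and 3.83% in SCFA replicates 4 and 5.

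The column run was therefore a covariate in the quasi-likelihood test of edgeR, and every adjusted p below comes from that test with the Benjamini-Hochberg correction unless another is named. A gene passed the test at an adjusted p under 0.1 and was a differentially expressed gene (DEG) if its log2 fold change also exceeded 1 in size. Because SCFA replicates 4 and 5 were the only libraries of the second run here, the fold change rested on SCFA replicates 1 and 3, and replicates 4 and 5 added to the estimate of spread. Of 16701 genes tested, 2046 passed (12.3%), of which 1121 were higher (6.71%) and 925 lower (5.54%) with SCFA. There were 343 DEGs (2.05%), 190 higher and 153 lower, and the median log2 fold change of all genes was -0.002. Without the covariate, 4 of 16161 genes passed (0.0248%), with 1608 at an unadjusted p under 0.05. All 4 were immediate early genes and lower with SCFA. SCFA replicates 1 and 3 alone against the 3 controls, all of the first run, gave 1217 passing genes (7.45%) and 257 DEGs (1.57%), of which 256 were among the 343. SCFA replicates 4 and 5 alone against the same 3 controls gave 426 passing genes (2.59%), 0.919% of genes higher and 1.67% lower, and 75 DEGs (0.456%), of which 24 were among the 343. These last 2 comparisons share their controls. The fold changes from replicates 1 and 3 alone rest on the same libraries as those of the main test. Their overlap with the 343 DEGs was thus largely set by the design. The 4 SCFA and 3 control libraries did not overlap for 1638 genes (9.81%), with all SCFA libraries above in 4.85% and below in 4.96% of genes, and for 74 of the 343 DEGs (21.6%). Of the 2046 passing genes 25.7% did not overlap.

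Immediate early genes were lower in the SCFA retinas of both column runs. *Egr1*, a zinc finger transcription factor, stood at 112, 92.0 and 134 CPM in the controls, at 29.2 and 25.6 CPM in SCFA replicates 1 and 3, and at 30.3 and 38.8 CPM in replicates 4 and 5. Every SCFA library lay below every control, and the mean fell from 112 ± 20.8 CPM (SD, n = 3) to 31 ± 5.6 CPM (SD, n = 4), a 3.63-fold difference. The log2 fold change was -2.04 ± 0.18 (SE, adjusted p = 0.00113). Without the covariate it was -1.86 (adjusted p = 0.00486), and from replicates 4 and 5 alone -1.69 (adjusted p = 0.00979).

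*Nr4a1*, an orphan nuclear receptor of the same early class, was at 55.7, 61.9 and 74.3 CPM in the controls and at 20.5, 18.9, 26.2 and 26.3 CPM in SCFA replicates 1, 3, 4 and 5. Its log2 fold change was -1.70 ± 0.14 (adjusted p = 0.00113), and -1.28 (adjusted p = 0.0131) from replicates 4 and 5 alone. *Fos*, a subunit of the AP-1 transcription factor, was at 68.6, 63.5 and 74.4 CPM in the controls and at 35.1, 20.7, 25.0 and 29.7 CPM in the 4 SCFA libraries. *Junb*, a partner of Fos in AP-1, was at 43.5, 37.7 and 38.6 CPM in the controls and at 23, 21.5, 23.4 and 24.1 CPM with SCFA. Neither gene overlapped between the groups. *Fos* fell by 1.30 ± 0.19 on the log2 scale (adjusted p = 0.0114) and *Junb* by 0.84 ± 0.12 (adjusted p = 0.0112), under the fold threshold for a DEG. The left-out SCFA replicate 2 also lay below all controls for each of these genes, at 30.3 CPM for *Egr1*, 16.8 for *Nr4a1*, 37.0 for *Fos* and 16.0 for *Junb*.

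The promoters of 3 of these genes are shown because activity and cAMP signalling reach many immediate early genes through the cAMP response element, whose half-site is TGACG, or CGTCA on the other strand. Each sequence runs from 250 bases before to 50 after the RefSeq transcript start (GRCm38.p6), 5′ to 3′ on the gene's strand, with half-sites in capitals. *Fos* lies at chr12:85473640-85473939 (+), *Junb* at chr8:84978699-84978998 (-) and *Nr4a1* at chr15:101266596-101266895 (+).
Fos: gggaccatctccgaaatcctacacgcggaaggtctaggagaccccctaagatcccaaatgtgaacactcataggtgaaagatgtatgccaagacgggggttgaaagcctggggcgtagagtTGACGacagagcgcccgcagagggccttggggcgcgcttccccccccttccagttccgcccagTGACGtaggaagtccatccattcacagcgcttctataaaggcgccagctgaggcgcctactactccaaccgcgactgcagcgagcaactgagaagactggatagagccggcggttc
Junb: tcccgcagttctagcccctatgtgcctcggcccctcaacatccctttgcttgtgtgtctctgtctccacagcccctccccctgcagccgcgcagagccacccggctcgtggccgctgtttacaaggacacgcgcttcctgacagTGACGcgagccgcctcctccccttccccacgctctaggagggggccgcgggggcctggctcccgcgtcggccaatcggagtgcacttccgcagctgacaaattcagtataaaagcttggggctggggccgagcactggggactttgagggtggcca
Nr4a1: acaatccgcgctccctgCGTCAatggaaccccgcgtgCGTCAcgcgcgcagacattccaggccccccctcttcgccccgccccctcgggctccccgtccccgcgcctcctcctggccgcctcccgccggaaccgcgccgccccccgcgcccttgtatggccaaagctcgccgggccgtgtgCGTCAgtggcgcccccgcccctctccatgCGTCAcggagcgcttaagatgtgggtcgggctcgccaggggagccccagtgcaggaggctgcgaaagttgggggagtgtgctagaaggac
The windows held 2 half-sites for *Fos*, 1 for *Junb* and 4 for *Nr4a1*. Of the 12 immediate early genes that passed with a lower level, 10 had a promoter in the RefSeq table (*Egr1* and *Ier2* did not match), and all 10 held at least 1 half-site on either strand, against 6837 of all 32851 promoters (20.8%). The full element TGACGTCA, which contains both half-sites, was in none of the 10 and in 1.79% of all promoters. The CArG box, the site of serum response factor, was in none of the 10 and in 1.63% of all. These are matches of letters in 300 bases and were not tested as sites of regulation. Listed immediate early genes that did not pass lower were not counted apart. Whether half-sites are particular to the lowered genes was therefore not tested. Sites more than 250 bases before the start, and any of *Egr1* or *Ier2*, were not searched, so the genes may hold CArG boxes elsewhere.

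Further early response genes were, like *Egr1*, *Nr4a1* and *Fos*, among the lower DEGs named because their groups did not overlap, so the order of their libraries was fixed by that choice. *Fosb*, a relative of Fos, was at 5.88 to 6.19 CPM in the controls and 1.86 to 3.42 CPM with SCFA, and fell by 1.37 ± 0.27 on the log2 scale (adjusted p = 0.0222). *Egr4*, of the Egr1 family, was at 4.44 to 7.80 CPM in the controls and 0.629 to 2.33 CPM with SCFA, with a log2 fold change of -2.59 ± 0.43 (adjusted p = 0.0144). *Npas4*, a transcription factor that neurons induce with activity, was at 7.49 to 8.74 CPM against 2.05 to 4.40 CPM, and its log2 fold change was -1.34 ± 0.31 (adjusted p = 0.036). *Apold1*, an early response gene of endothelial cells, was at 7.20 to 9.99 CPM in the controls and 3.26 to 4.42 CPM with SCFA, and fell by 1.12 ± 0.24 on the log2 scale (adjusted p = 0.0264). From SCFA replicates 4 and 5 alone the log2 fold changes were -1.55 for *Egr4* (adjusted p = 0.0798), -1.42 for *Npas4* (adjusted p = 0.0453) and -1.30 for *Apold1* (adjusted p = 0.0455), and *Fosb* passed at an adjusted p of 0.082.

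**Figure D1:**
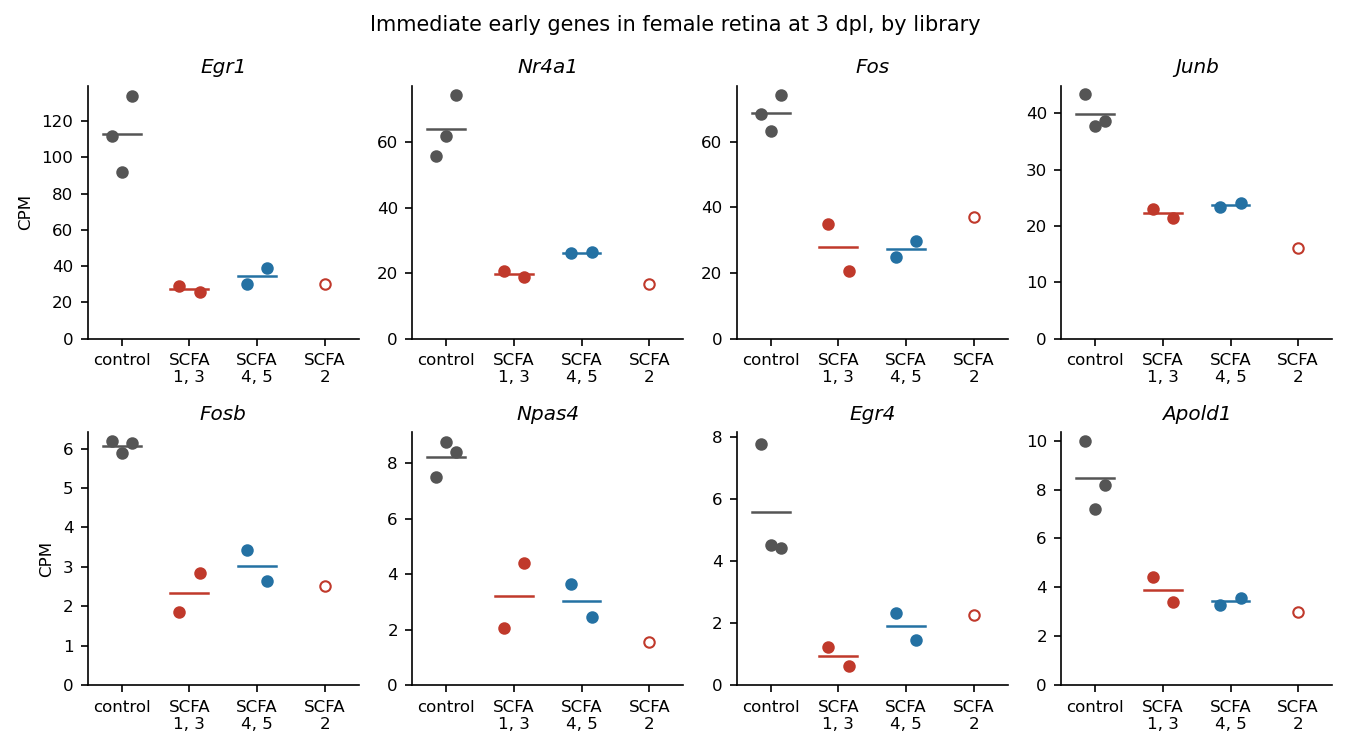
Levels of 8 early response genes in CPM (vertical axes, from 0) in the female libraries at 3 dpl. Each point is 1 library and each line a group mean, with controls in grey, SCFA replicates 1 and 3 in red, replicates 4 and 5 in blue and the left-out replicate 2 as an open point. In every panel all SCFA points lie below all 3 controls, for most of these genes a condition of their choice, as for *Egr1*, with controls at 92.0 to 134 CPM and SCFA libraries at 25.6 to 38.8 CPM.

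Of 26 immediate early genes listed, 25 were tested, of which 12 passed lower, 6 of them as DEGs, and 1 passed higher. The list's median log2 fold change was -0.71, beside -0.002 over all genes and 5.54% of all genes passing lower. From replicates 4 and 5 alone, 10 of the list passed lower with a median of -0.67, and without the covariate 4 passed lower with a median of -0.61. The members outside the rule for named genes were chosen after their values were seen. They included *Klf2* (-0.80, adjusted p = 0.0483), *Ier2* (-0.42, adjusted p = 0.0696), *Nr4a3* (-0.90, adjusted p = 0.0942), *Klf4* (-0.89, adjusted p = 0.0927) and *Ccn1*, a matricellular protein gene (-0.98, adjusted p = 0.0558). *Ier5* was the member that rose, by 0.52 (adjusted p = 0.0758). *Jun*, which encodes the best known partner of Fos, was at 47.6 to 52.8 CPM in the controls and 40.6 to 57.8 CPM with SCFA, overlapping widely, with a log2 fold change of -0.02 (adjusted p = 0.952).

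Immediate early genes also differed between column runs in male controls at 3 dpl. *Egr1* was at 82.5 and 65.0 CPM in the pair of male controls of the first run and at 38.6 and 33.1 CPM in the pair of the second, beside 29.1 CPM in the first-run SCFA male library and 34.4 and 14.4 CPM in the second-run ones. *Fos* was at 50.5 and 52.6 CPM against 29.1 and 22.9 CPM in the same male controls, and *Nr4a1* at 64.8 and 43.2 against 32.9 and 26.7 CPM. No female control at 3 dpl was in the second run, so treatment and column run cannot be told apart for SCFA replicates 4 and 5. SCFA replicates 1 and 3 were compared within the first run, where *Egr1* was at 29.2 and 25.6 CPM against 92.0 to 134 CPM. A fit of all groups but SCFA replicate 2, in which the run effect is estimated from the other groups too, passed 0.418% of genes and gave 22 DEGs (0.121%). In it the female 3 dpl log2 fold change was -1.89 for *Egr1* (adjusted p = 0.0781), -1.48 for *Nr4a1* (adjusted p = 0.0628), -1.17 for *Fos* (adjusted p = 0.128) and -0.77 for *Junb* (adjusted p = 0.19). *Fosb* passed in it (-1.22, adjusted p = 0.0696). *Egr4* (-2.03, adjusted p = 0.152), *Npas4* (-1.15, adjusted p = 0.138) and *Apold1* (-0.98, adjusted p = 0.284) did not.

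MAP kinase signalling induces immediate early genes and is held back by feedback phosphatases and Spred proteins. Of 11 tested feedback genes, 4 passed higher and 1 lower, beside 6.71% and 5.54% of all genes. Their median log2 fold change was 0.44, and -0.09 from replicates 4 and 5 alone. *Dusp4*, a nuclear MAP kinase phosphatase, was at 5.94 to 9.94 CPM in the controls, 15.9 and 14.2 CPM in SCFA replicates 1 and 3 and 15.1 and 20.5 CPM in replicates 4 and 5, and rose by 0.91 (adjusted p = 0.0397). It also passed from replicates 4 and 5 alone, at 1.16 (adjusted p = 0.0568). *Dusp4* did not pass without the covariate (adjusted p = 0.471) or in the fit of all groups (0.54, adjusted p = 0.534). *Spred2* rose by 0.67 (adjusted p = 0.0254) and *Dusp1*, itself an early response gene, fell by 0.62 on the log2 scale (adjusted p = 0.0655). Replicates 4 and 5 alone gave 0.11 (adjusted p = 0.747) for *Spred2*.

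Among the other lower DEGs whose groups did not overlap was *Slc2a8*, a glucose transporter, at 17.4, 17.4 and 20.8 CPM in the controls, 8.90 and 8.87 CPM in SCFA replicates 1 and 3 and 13.5 and 12.2 CPM in replicates 4 and 5. Its log2 fold change was -1.06 ± 0.16 (adjusted p = 0.0137), and -0.89 (adjusted p = 0.0447) in the fit of all groups. *Edn2*, the endothelin that stressed photoreceptors release, was at 15.9, 22.8 and 36.9 CPM in the controls and at 10.3, 14.2, 12.2 and 15.2 CPM with SCFA, so that the lowest control was close to the highest SCFA library. It fell by 1.03 ± 0.30 on the log2 scale (adjusted p = 0.0683). *Zc3h12a*, an RNase that degrades inflammatory mRNAs, was low throughout, at 1.40 to 2.08 CPM against 0.384 to 1.18 CPM, and fell by 1.56 (adjusted p = 0.079). The stress kinase gene *Mapk11* (p38 beta) had a log2 fold change of -1.04 (adjusted p = 0.0304), the helicase gene *Ighmbp2* -1.01 (adjusted p = 0.0211), *Gtpbp6* -1.02 (adjusted p = 0.0144) and the imprinted noncoding RNA *Mirg* -1.18 (adjusted p = 0.0737). *Fance*, of the Fanconi anaemia repair pathway, was named by its small p and was no DEG, at -0.77 (adjusted p = 0.0107). None of these 8 genes passed from replicates 4 and 5 alone. In the fit of all groups *Ighmbp2* passed beside *Slc2a8* (adjusted p = 0.0696). *Mapk11* (adjusted p = 0.116), *Gtpbp6* (0.163), *Fance* (0.167), *Zc3h12a* (0.172), *Mirg* (0.359) and *Edn2* (0.472) did not pass in it.

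The higher DEGs whose groups did not overlap included glial and vascular transcription factors and growth factors. *Sox9*, a transcription factor of Müller glia, was at 13.3, 13.6 and 13.9 CPM in the controls, 32.9 and 28.9 CPM in SCFA replicates 1 and 3, and 15.6 and 21.7 CPM in replicates 4 and 5. Its log2 fold change was 1.18 ± 0.16 (adjusted p = 0.0103), and 0.46 (adjusted p = 0.193) from replicates 4 and 5 alone. In the fit of all groups *Sox9* did not pass (0.89, adjusted p = 0.107). *Efhd1*, a calcium-binding protein of mitochondria, was at 8.52 to 11.4 CPM in the controls, 25.4 and 24.2 CPM in replicates 1 and 3 and 11.5 and 14.5 CPM in replicates 4 and 5, the lower of which lay just above the highest control. It rose by 1.29 ± 0.17 (adjusted p = 0.0101) and by 1.04 in the fit of all groups (adjusted p = 0.0754).

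The transcription factor genes *Sox4* and *Sox18*, the latter of endothelial cells, stood at similar levels in both pairs of SCFA libraries. *Sox4* was at 1.22 to 2.24 CPM in the controls, 5.25 and 3.59 CPM in replicates 1 and 3 and 4.01 and 4.59 CPM in replicates 4 and 5. It rose by 1.36 ± 0.32 (adjusted p = 0.0361), and replicates 4 and 5 alone gave 1.33 (adjusted p = 0.082). *Sox18* was at 1.89 to 2.86 CPM in the controls and 4.15 to 5.70 CPM with SCFA and rose by 1.08 ± 0.28 (adjusted p = 0.0473), with 1.02 (adjusted p = 0.111) from replicates 4 and 5 alone. The fit of all groups gave 0.94 for *Sox4* (adjusted p = 0.283) and 0.88 for *Sox18* (adjusted p = 0.185). *Bmp3*, a bone morphogenetic protein, was at 9.43 to 10.6 CPM in the controls and 13.1 to 27.1 CPM with SCFA and rose by 1.12 (adjusted p = 0.0182). *Fgf10*, a fibroblast growth factor, rose by 1.41 (adjusted p = 0.0252) and *Pla2g4a*, the phospholipase that releases arachidonic acid, by 1.31 (adjusted p = 0.0217). *Plscr1*, *Ccdc8*, *Snx33*, *Arhgef16*, *Npas3*, *Amot* and *Prr5l* rose by 1.02 to 1.21, and of these 7 genes none passed from replicates 4 and 5 alone. In the fit of all groups *Pla2g4a* and *Ccdc8* passed (adjusted p = 0.0628 each). *Bmp3* (adjusted p = 0.197) and *Fgf10* (0.186) did not, nor did *Plscr1*, *Snx33*, *Arhgef16*, *Npas3*, *Amot* and *Prr5l* (0.118 to 0.202). *Mbp*, the myelin basic protein gene, completed the group, and 1 library carried its rise, SCFA replicate 3 at 67.3 CPM against 18.8 to 22.9 CPM in the other 3 SCFA libraries.

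**Figure D2:**
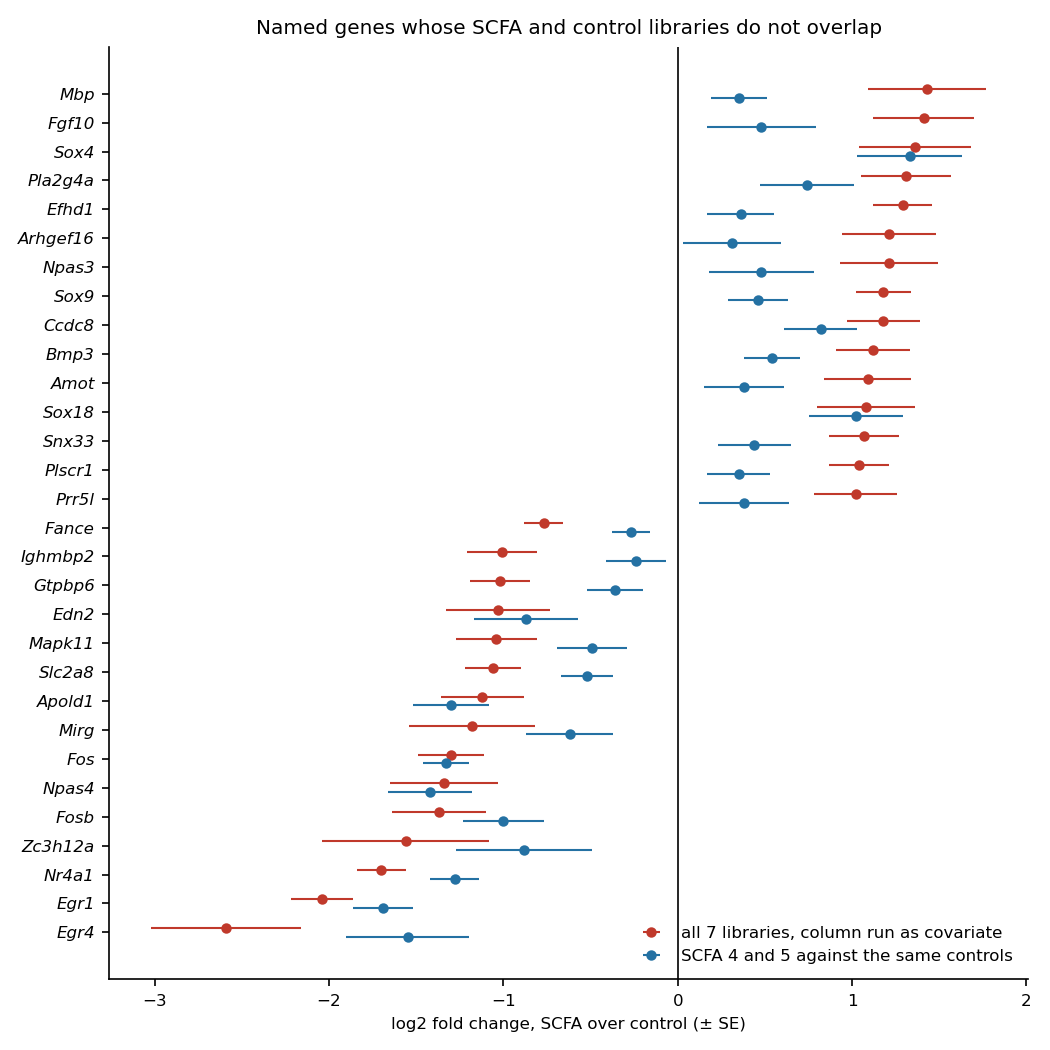
Log2 fold changes of SCFA over control (horizontal axis) with their SE for 30 named genes whose SCFA and control libraries did not overlap, from all 7 libraries with the column run as covariate (red) and from SCFA replicates 4 and 5 against the same controls (blue). Both points of a gene lie on the same side of 0, which the choice of genes without overlap favours. *Fos* (-1.30 and -1.33) and *Sox4* (1.36 and 1.33) have like values in red and blue, whereas *Egr4* (-2.59 and -1.55) and *Sox9* (1.18 and 0.46) lie nearer to 0 in blue.

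Retinal cell type genes were compared by list. In a bulk retina, fewer cells of a type and less RNA per cell cannot be told apart. Of 13 bipolar cell genes, 7 passed higher and none lower, beside 6.71% and 5.54% of all genes. The list's median log2 fold change was 0.38. *Vsx1*, a homeobox gene of cone bipolar cells, was at 13.3, 14.1 and 14.1 CPM in the controls and 28.5, 18.1, 23.6 and 29.0 CPM with SCFA, and rose by 0.75 ± 0.19 (adjusted p = 0.0434). Every SCFA library lay above every control, and it passed also from replicates 4 and 5 alone, at 0.94 (adjusted p = 0.0394). In the fit of all groups *Vsx1* did not pass (0.59, adjusted p = 0.256). *Pcp2* (0.70, adjusted p = 0.0277) and *Cabp5* (0.67, adjusted p = 0.0346), other bipolar cell genes, passed with all 7 libraries but not from replicates 4 and 5 alone, where *Pcp2* was at -0.06.

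Of 12 Müller glia genes, 5 passed higher, with a median of 0.47, and none passed from replicates 4 and 5 alone, where the median was 0.15. Over all genes 6.71% passed higher, and 0.919% from replicates 4 and 5 alone, so none of 12 is near the share there. *Rlbp1*, the retinaldehyde-binding protein gene, was at 604, 657 and 549 CPM in the controls, 1110 and 950 CPM in SCFA replicates 1 and 3, and 445 and 574 CPM in replicates 4 and 5. *Glul*, glutamine synthetase, rose by 0.80 (adjusted p = 0.0161), *Sox2* by 0.86 (adjusted p = 0.0153) and *Rlbp1* by 0.77 (adjusted p = 0.0155). From replicates 4 and 5 alone *Sox2* and *Rlbp1* were at -0.31 and -0.24, so their direction held within the first column run only. *Sox9*, of the same list, was at 0.46 there, and *Glul* was at 0.20 or higher in every alternative fit. The direction of the list in replicates 4 and 5 was thus mixed. Of 19 rod genes, *Gngt1* passed higher (0.56, adjusted p = 0.0504) and *Pde6b* (-0.50, adjusted p = 0.0381) and *Cnga1* (-0.41, adjusted p = 0.0658) lower, and of 13 cone genes *Gnat2* (-0.38, adjusted p = 0.0602) and *Gnb3* (-0.41, adjusted p = 0.0765) passed lower. Of 15 amacrine and horizontal cell genes 3 passed higher, and of 14 ganglion cell genes none passed. Of 23 genes for glutamate, GABA and glycine receptors 6 passed higher, among them *Glrb*, the beta subunit of the glycine receptor (0.56, adjusted p = 0.0168), and none from replicates 4 and 5 alone.

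**Figure D3:**
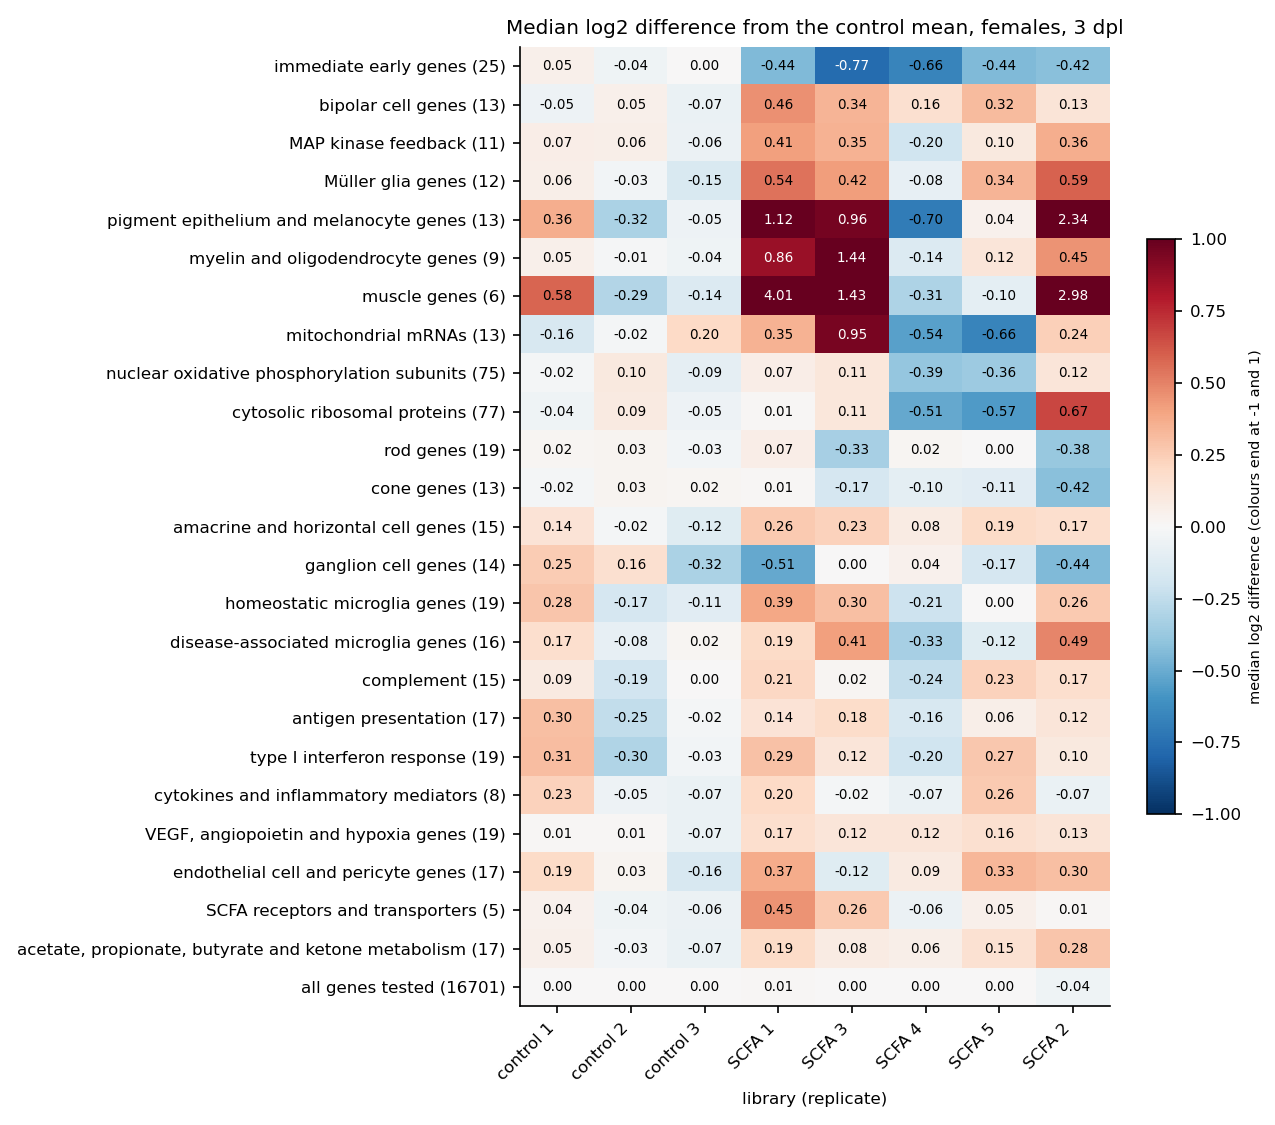
Median log2 difference from the control mean over the tested members of each gene list (rows, number of members in brackets) in each female 3 dpl library (columns), with red higher, blue lower and colours ending at -1 and 1. Immediate early genes are below the controls in all 5 SCFA libraries (-0.77 to -0.42), whereas pigment epithelium, muscle, mitochondrial and ribosomal genes differ between SCFA replicates 1 and 3 and replicates 4 and 5.

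Microglial and inflammatory genes were read beside the 12.3% of all genes that passed. None of 19 homeostatic microglia genes passed, with a median of 0.34 and of -0.07 from replicates 4 and 5 alone. Of 16 tested genes of disease-associated microglia, *Cd9* (0.69, adjusted p = 0.018), *Cd63* (0.58, adjusted p = 0.0182) and *Igf1* (0.86, adjusted p = 0.0252) passed higher, and from replicates 4 and 5 alone they were at -0.42, -0.15 and -0.21. The first 2 are tetraspanin genes that other retinal cells also express. *Aif1*, which encodes the microglial marker Iba1, was at 1.71 to 2.39 CPM in the controls and 0.868 to 4.97 CPM with SCFA, with a log2 fold change of 0.85 ± 0.38 (adjusted p = 0.199). *Cd74*, the invariant chain of MHC class II, overlapped between the groups (4.17 to 15.2 against 4.23 to 10.5 CPM), at -0.49 ± 0.48 (adjusted p = 0.567). *C1qa*, of the complement starter C1q, was at -0.10 ± 0.18 (adjusted p = 0.787), and the collagen gene *Col9a3*, which the study also names, at -0.45 (adjusted p = 0.306). The wide SE of *Cd74* leaves a sizeable change in either direction undetectable in these libraries.

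Of 15 tested complement genes 2 passed higher, among them *Cd59a*, which inhibits the last step of the cascade (0.58, adjusted p = 0.0187), and *C3*, its central component, passed lower. *C3* was at 4.00 to 6.29 CPM in the controls, 1.99 and 2.83 CPM in SCFA replicates 1 and 3 and 4.12 and 6.22 CPM in replicates 4 and 5, so that its difference of -1.09 (adjusted p = 0.0641) was that of the first column run. None of 17 antigen presentation genes and none of 8 tested cytokine genes passed, and *Oasl2* (0.84, adjusted p = 0.057) was the member of 19 interferon response genes that passed. Of 19 genes of the VEGF, angiopoietin and hypoxia pathways, which drive neovascularisation, *Nrp1*, a VEGF co-receptor, passed higher (0.63, adjusted p = 0.0787). Replicates 4 and 5 alone gave -0.08 (adjusted p = 0.878) for it.

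The genes through which SCFA are sensed, carried and used were compared by list, beside 6.71% of all genes passing higher and 5.54% lower. Of 10 receptor and transporter genes 5 were tested, and the receptor genes *Ffar2*, *Ffar3* and *Hcar2* had too few counts to be. *Slc16a1*, the monocarboxylate transporter MCT1, was at 269 to 288 CPM in the controls, 401 and 336 CPM in SCFA replicates 1 and 3 and 289 and 291 CPM in replicates 4 and 5, and rose by 0.39 (adjusted p = 0.0619). Of 17 genes of acetate, propionate, butyrate and ketone metabolism 4 passed higher. *Hadh*, an enzyme of mitochondrial fatty acid oxidation, was at 23.8 to 27.8 CPM in the controls, 36.4 CPM in each of replicates 1 and 3 and 27.2 and 30.5 CPM in replicates 4 and 5, with a log2 fold change of 0.47 (adjusted p = 0.0496) and of 0.14 from the latter alone. Of 11 histone deacetylase genes *Hdac3* passed lower (-0.51, adjusted p = 0.0553).

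*Esrrg*, an estrogen-related receptor gene, was one of the genes with the same shift in both pairs of SCFA libraries. It was at 59.5, 57.1 and 55.4 CPM in the controls, 85.9 and 79.8 CPM in SCFA replicates 1 and 3 and 81.9 and 85.4 CPM in replicates 4 and 5, and the groups did not overlap. The log2 fold change was 0.53 ± 0.10 (adjusted p = 0.0195), and 0.55 (adjusted p = 0.0488) from replicates 4 and 5 alone. Without the covariate the adjusted p was 0.471, and in the fit of all groups the log2 fold change was 0.32 (adjusted p = 0.534). Of the 3 estrogen-related receptor genes tested, 1 passed higher and 1 lower, with a median of -0.18. In the fit of all groups 1 of the 3 passed lower and none higher. *Cmip* stood higher in the second run, at 24.8 and 28.3 CPM in replicates 4 and 5 against 16.8 and 13.1 CPM in replicates 1 and 3 and 7.65 to 13.3 CPM in the controls. It did not pass with all 7 libraries (0.62, adjusted p = 0.134) but passed from replicates 4 and 5 alone (1.45, adjusted p = 0.0394). Of 14 Eph receptor genes, which guide axons and vessels, 3 passed higher and 1 lower, beside 6.71% and 5.54% of all genes. The list's median was -0.07. The higher ones were *Epha5* (0.85, adjusted p = 0.0102), *Epha4* (0.86, adjusted p = 0.0121) and *Epha3* (0.62, adjusted p = 0.0685), and the lower one *Ephb6* (-0.47, adjusted p = 0.0832). From replicates 4 and 5 alone none of the 4 passed, at 0.11, 0.15, -0.09 and 0.09.

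Transcripts of tissues next to the retina split the SCFA libraries by column run. *Optc*, *Ltbp2*, *Gpx3* and *Best2*, chosen after their values were seen, are strongly expressed in the ciliary body. *Gpx3*, a secreted glutathione peroxidase, was at 165, 65.8 and 243 CPM in the controls, 11.8 and 17.0 CPM in SCFA replicates 1 and 3 and 162 and 303 CPM in replicates 4 and 5. *Optc*, opticin, was at 26.0 to 49.3 CPM in the controls, 1.34 and 5.72 CPM in replicates 1 and 3 and 38.7 and 68.2 CPM in replicates 4 and 5. Replicate 5 was thus above all controls for both genes, and replicates 1 and 3 below all of them. The log2 fold changes were -3.45 for *Gpx3*, -3.34 for *Optc* and -3.33 for *Ltbp2*, each with an adjusted p of 0.0107, and 0.57, 0.58 and 0.59 from replicates 4 and 5 alone. *Best2*, another such gene, gave 98, 82 and 162 counts in the controls, 2 and 2 counts in replicates 1 and 3 and 150 and 317 counts in replicates 4 and 5.

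Pigment epithelium and melanocyte genes moved the opposite way, with 9 of 13 passing higher (6.71% of all genes did), 8 as DEGs, and a median of 1.11. Their summed level was 269 to 491 CPM in the controls, 966 and 856 CPM in SCFA replicates 1 and 3 and 199 and 390 CPM in replicates 4 and 5. *Ttr*, transthyretin, rose by 1.32 (adjusted p = 0.0211) and was at -0.48 from replicates 4 and 5 alone. Of 9 tested myelin genes 7 passed higher and all 6 muscle genes passed higher. The summed muscle level was 2.74 to 7.44 CPM in the controls, 105 and 14.2 CPM in replicates 1 and 3 and 2.66 and 3.30 CPM in replicates 4 and 5, so that replicate 1 carried most of it. The summed myelin level was 59.4 to 74.8 CPM in the controls, 101 and 197 CPM in replicates 1 and 3 and 58.9 and 70.4 CPM in replicates 4 and 5. Of the 19 lens genes tested none passed with all 7 libraries, and 2 passed higher from replicates 4 and 5 alone, *Cryge* and *Mip*, named after their values were seen. The summed lens level was 91.4, 608 and 68.7 CPM in the controls, 116 and 663 CPM in replicates 1 and 3, and 956 and 770 CPM in replicates 4 and 5, which lay above all controls. The part of neighbouring tissue in the other differences of the SCFA libraries, the immediate early genes included, was not tested.

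**Figure D4:**
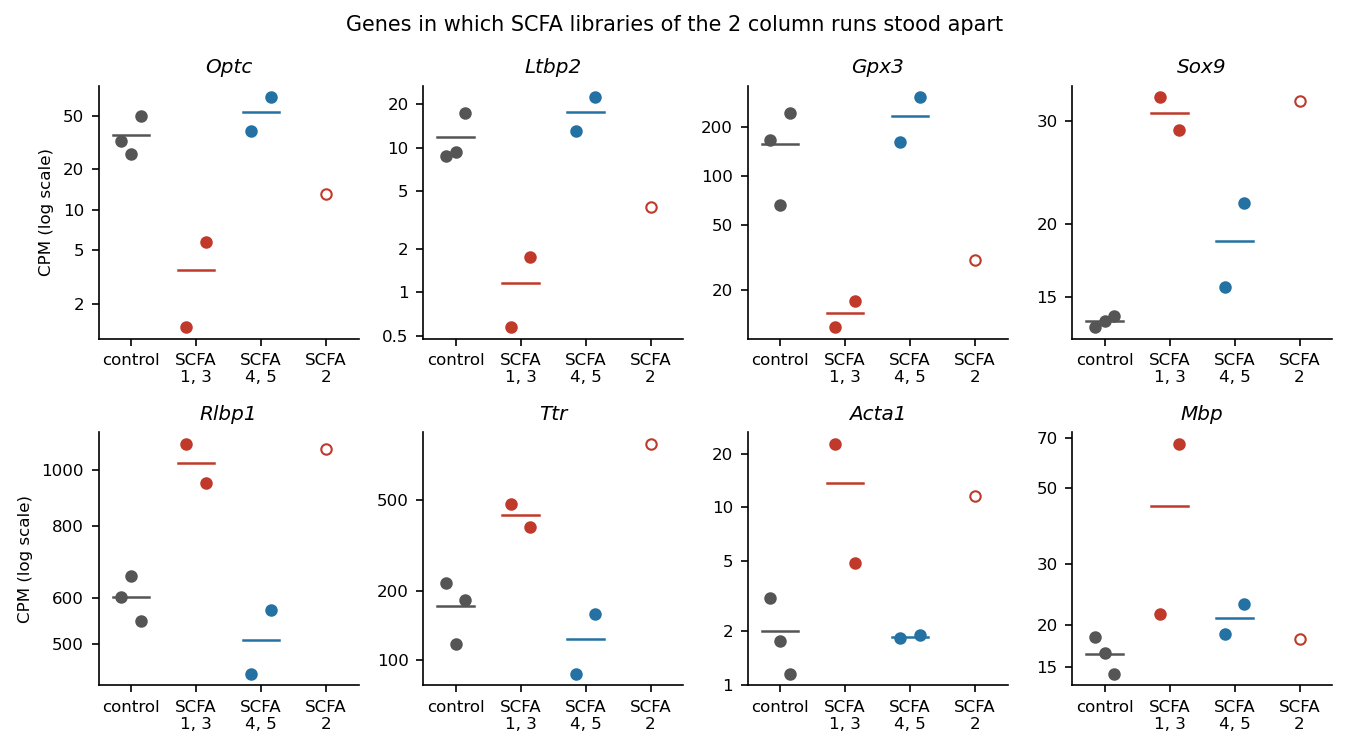
Levels of 8 genes in CPM on log axes in the female libraries at 3 dpl, with controls in grey, SCFA replicates 1 and 3 in red, replicates 4 and 5 in blue, the left-out replicate 2 open, and lines for group means. *Optc*, *Ltbp2* and *Gpx3* are below the controls in replicates 1 and 3 (and 2) but not in 4 and 5, *Sox9*, *Rlbp1* and *Ttr* are higher in replicates 1 and 3 than in the other filled points, and single libraries lead *Acta1* (22.7 CPM) and *Mbp* (67.3 CPM).

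Of 13 mitochondrial mRNAs, 8 passed higher with all 7 libraries and 8 passed lower from replicates 4 and 5 alone. Over all genes these shares were 6.71% and 1.67%. *mt-Cytb*, a subunit of complex III, was at 12000 to 14900 CPM in the controls, 19500 and 31400 CPM in replicates 1 and 3 and 9200 and 8480 CPM in replicates 4 and 5. Of 77 tested cytosolic ribosomal protein genes none passed with all 7 libraries, whereas 55 passed lower from replicates 4 and 5 alone, with a median of -0.54. Of 75 tested nuclear genes for oxidative phosphorylation 5 passed higher with all 7 libraries and 24 lower from replicates 4 and 5 alone. The sign for the mitochondrial mRNAs thus differed between the pairs of SCFA libraries, and their share split the whole series by column run. The part of the run in these differences was not tested.

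Whether the response was particular to females was tested as the sex by treatment term in a fit of all 3 dpl libraries but female SCFA replicate 2, with column run as covariate. By edgeR none of 17674 genes passed, with 1741 at an unadjusted p under 0.05, whereas DESeq2's Wald test on the same design passed 65. In this fit *Egr1* was at -1.67 ± 0.31 in females and -0.98 ± 0.29 in males, a difference of -0.70 ± 0.40 (adjusted p = 0.569). *Nr4a1* was at -1.42 ± 0.26 in females and -0.61 ± 0.24 in males, a difference of -0.81 ± 0.33 (adjusted p = 0.473). Both SCFA responses pointed down in each sex. They passed within females (adjusted p = 0.0986 each) but not within males (adjusted p = 0.173 and 0.263). A larger fall in females was not shown. *Ccdc8* was at 0.96 ± 0.21 in females and -0.52 ± 0.20 in males (adjusted p for the difference = 0.313), and *Camk1d*, a calcium-dependent kinase gene, at -0.16 ± 0.11 in females and 0.68 ± 0.10 in males (adjusted p for the difference = 0.241).

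**Figure D5:**
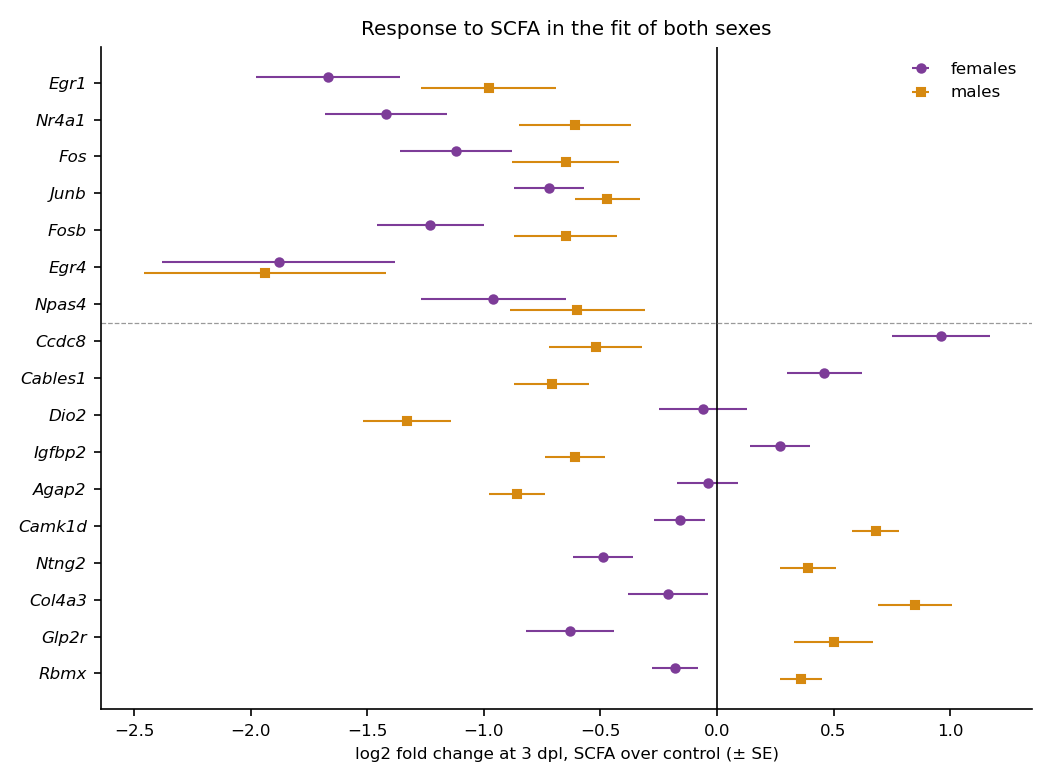
Log2 fold change of SCFA over control at 3 dpl (horizontal axis) with its SE in females (purple circles) and males (orange squares), from 1 fit of both sexes. Above the dashed line are 7 immediate early genes, negative in both sexes, as *Egr1* at -1.67 and -0.98. None of these 7 passed within males. Below the line are the 10 genes named for the difference between the sexes, of which none passed after adjustment.

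The same test between 3 and 7 dpl in females, leaving out 1 control at 7 dpl (labelled as replicate 2) that held Y-linked transcripts, passed none of 17467 genes by edgeR, with 637 at an unadjusted p under 0.05 and 3 passing by DESeq2's Wald test. *Egr1* was at -1.93 ± 0.29 at 3 dpl and -1.52 ± 0.28 at 7 dpl, a difference of 0.40 ± 0.39 (adjusted p = 1). The 7 dpl controls were at 111 and 41.3 CPM for *Egr1* and the 4 SCFA libraries at 21 to 34.9 CPM. The fall of *Egr1* at 7 dpl did not pass (adjusted p = 0.154). *Fos* was at 72 and 20.2 CPM in the 7 dpl controls and 21.7 to 27.8 CPM with SCFA. *Nr4a1* was at 89.5 and 25.9 CPM against 24.8 to 32.1 CPM. For *Fos* and *Nr4a1* 1 control was thus as low as the SCFA libraries. *Col8a2*, a collagen gene, was at 1.81 ± 0.33 at 3 dpl and -0.51 ± 0.34 at 7 dpl (adjusted p for the difference = 1), and *Wnt16*, a Wnt ligand gene, at -1.32 ± 0.45 and 1.16 ± 0.47 (adjusted p for the difference = 1). At 3 dpl *Col8a2* was at 39 and 28.7 CPM in SCFA replicates 1 and 3. Replicates 4 and 5 were at 6.04 and 10.8 CPM, beside 6.22 to 12.8 CPM in the controls. *Wnt16* was low throughout, at 0.322 to 2.3 CPM.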

How the data were processed

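RNA from 43 mouse retinal pools was sequenced as paired reads on an Illumina NovaSeq. The authors deposited raw read counts per gene in 1 table of 54532 genes, of which 54495 matched GENCODE M21 names. The submitters' processing notes name mm10 and DESeq2; the aligner, counter, annotation and strand setting are not given in the sources used here, so overlapping and antisense genes may share reads. Groups, replicate numbers and days came from the sample titles, because the treatment field read control for every sample. Totals were 14826957 to 21507527 counts per library.

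Genes passing filterByExpr were TMM-normalised and fitted with edgeR 4.0.16 (R 4.3.3; glmQLFit, glmQLFTest), with Benjamini-Hochberg adjustment over all genes tested and column run (the first 31 or the last 12 data columns) as covariate. The adjusted p threshold of 0.1 is the study's; its stated fold change threshold of 1 was read here as an absolute log2 fold change, which is an interpretation. SE is the absolute log2 fold change divided by the square root of F. Median list differences per library used a pseudocount of 0.5 CPM. DESeq2 1.42.0, other normalisations, filters, thresholds, covariates and library sets, leaving out each library, a replicate block, and a correction for GC content and length were alternatives; the fit of SCFA replicates 4 and 5 alone was added after the data were seen. The script was tested on counts simulated from the fitted means and dispersions, with 100 genes changed 2-fold and 100 changed 4-fold. For SCFA against control in females at 3 dpl, 17.8% of edgeR's calls and 22.4% of DESeq2's were false. These lie above the share that the 0.1 threshold names. For the difference between the sexes the shares were 7.1% and 16.8%, and for that between days 10.2% and 20.3%. Tables and figures used Python 3.11.15, pandas 2.3.3, numpy 2.4.6 and matplotlib 3.10.9.

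The members, lists and tests were chosen with earlier results of these data known. Named genes were, at a mean of 1 CPM or more and with an established symbol, the 15 DEGs of smallest adjusted p in each direction whose groups did not overlap (with the next smallest p where there were fewer), up to 4 passing members of each list, 7 genes the study names, and 5 genes per direction for each difference between responses. Not every gene so named is reported, and some genes are not reported here.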

Additional observations from a re-analysis of the deposited data

Results flagged for a closer look

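The lens share of 26.5% in female SCFA 3 dpl replicate 2 stood far above the control libraries, and that library was left out of the comparisons. Single libraries stood far from the other 3 SCFA libraries at 3 dpl for 3 named genes by Dixon's ratio at its 95% critical value. *Mbp* was at 67.3 CPM in SCFA replicate 3, *Acta1* at 22.7 CPM in SCFA replicate 1 and *Mirg* at 1.73 CPM in 1 SCFA library. Across the comparison, 80 groups of 4 libraries were tested and 3 stood out this way, and chance flags about 1 in 20.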

How the results depend on the processing

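The 343 DEGs and 2046 passing genes became 3 and 4 without the column run covariate, 22 and 76 in the fit of all groups, and 75 and 426 from SCFA replicates 4 and 5 alone. At an adjusted p under 0.05 they were 189 and 941, without a filter on low counts 572 and 2693, with SCFA replicate 2 added 572 and 2649, and without a fold threshold all 2046 counted. SCFA replicates 1 and 3 alone gave 257 and 1217. Leaving out 1 library gave 184 to 491 DEGs and 474 to 2736 passing genes: 184 and 474 without SCFA replicate 3, 223 and 937 without control 2, 201 and 1119 without control 3, while without SCFA replicate 1, 4 or 5 the passing genes were 1188, 1223 and 1211. The cause was not tested, beyond the fewer libraries in each such fit. DESeq2 gave 267 and 2190, and the other settings stayed within 1.5 times. Replicate numbers were in the labels of both groups, but deviations correlated at 0.208 and 0.0944 for numbers 1 and 3, so they were not taken as pairs; the replicate block on these 4 libraries gave 368 and 2461, with 255 of its DEGs shared.

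DEGs for the difference between the sexes, 0 with edgeR, were 35 by DESeq2 and 172 without a filter, and 0 to 1 leaving out 1 library (1 without control 1). Those for the difference between days, also 0, were 3 by DESeq2 and 120 without a filter, and 0 to 24 leaving out 1 library (24 without female control 7 dpl replicate 3). At this depth genes with few counts, *Ffar2* and *Ffar3* among them, could not be tested.

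*Egr1* and *Nr4a1* passed in all 20 alternatives (highest adjusted p 0.0781 and 0.0628), and *Fos* and *Junb* in 19 (0.128 and 0.19 in the fit of all groups). Of 73 genes of the text that passed, 59 still did from SCFA replicates 1 and 3 alone, the comparison within the first column run. There 14 were lost in the same direction, among them *Mirg* (adjusted p = 0.116), *Zc3h12a* (0.113), *Slc16a1* (0.122), *Cnga1* (0.127), *Gnat2* (0.113) and *Gnb3* (0.141). Of the 73, 4 still passed without the covariate and 10 in the fit of all groups. From replicates 4 and 5 alone 15 still passed and 21 changed direction, and the cause was not tested. The log2 fold changes that did were *Sox2* -0.31, *Rlbp1* -0.24, *Pcp2* -0.06, *Pde6b* 0.06, *Gngt1* -0.62, *Cd63* -0.15, *Cd9* -0.42, *Igf1* -0.21, *C3* 0.02, *Cd59a* -0.17, *Nrp1* -0.08, *Epha3* -0.09, *Ttr* -0.48, *Acta1* -0.10, *mt-Cytb* -0.60, *Optc* 0.58, *Ltbp2* 0.59, *Gpx3* 0.57, *Cnga1* 0.05, *Glrb* -0.09 and *Ephb6* 0.09.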
